A study of Mus musculus with 6 samples.

Results

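The E2F and DP transcription factor genes were read across forebrain RNA sequencing libraries of mouse embryos, as a set of 10 genes (E2f1 to E2f8, Tfdp1 and Tfdp2) matched by symbol to the Ensembl identifiers of the deposited table. All 10 were present among its 33084 genes, and all 10 were among the 19403 with enough counts to be tested. The forebrains were dissected at embryonic day 15.5 from wild-type embryos (wt, n = 3) and from heterozygous embryos (Dyrk1a+/-, n = 3) of the same mouse line. The labels name the libraries of each genotype as biological replicates, and do not say which part of Dyrk1a is deleted or whether embryos were pooled. The p-values below measure the spread between these libraries.

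E2F proteins bind promoters of genes needed for DNA synthesis and mitosis, and most of them do so as dimers with a DP protein, encoded by Tfdp1 or Tfdp2. E2F1, E2F2 and E2F3 activate transcription once cyclin-dependent kinases release them from the retinoblastoma protein. E2F4 and E2F5 act mainly with the pocket proteins p107 and p130 as repressors in resting cells. E2F6 represses without a pocket protein, in a polycomb complex, and the atypical E2F7 and E2F8 bind DNA without DP and repress in late S phase. The kinase DYRK1A touches this circuit, since it phosphorylates cyclin D1 and the LIN52 subunit of the DREAM complex, a repressor that holds E2F4 or E2F5, a DP protein and p130. The comparison asks whether transcripts of these factors differ in Dyrk1a heterozygotes.

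No member passed the test over all genes, and the estimated difference was toward higher levels in Dyrk1a+/- for all 10. E2f8 had the largest estimate, at 1.5-fold of wt, followed by E2f6 at 1.3-fold, E2f2 at 1.27-fold and E2f1 at 1.23-fold. E2f4 and Tfdp1, which encode the main resting-cell repressor and its common partner, were estimated at 1.03-fold each. The separation of the genotypes was clearest in E2f8, E2f2, E2f6 and E2f1. Genes on the target side of the pathway lay on the same side, with all 40 tested genes of a G1/S target list and all 28 of a G2/M list estimated higher in Dyrk1a+/-. Of all genes tested 51.2% were estimated higher. In bulk tissue a change in the number of cells of a type and a change in RNA per cell cannot be told apart.

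Promoter sequences are shown for members whose windows hold an E2F motif or, for E2f8, a CHR, so that the letters can be read beside the expression values. RefSeq promoter windows on GRCm38.p6 (250 bases before to 50 after a start site) were given for 8 of the 10 members, in 12 windows, and E2f4 and E2f5 had none. Exact matches were searched on both strands for the E2F motif (TTTCCCGC, TTTCGCGC, TTTGCCGC or TTTGGCGC), the cell cycle homology region or CHR (TTTGAA or TTCGAA) and the CCAAT box (CCAAT), and none of the matches in member windows overlapped another. In the lines below capitals mark these matches, in whichever orientation they lie, and each sequence reads 5′ to 3′ along the gene.
E2f8, chr7:48881597-48881746, minus strand, 150 bases before the start: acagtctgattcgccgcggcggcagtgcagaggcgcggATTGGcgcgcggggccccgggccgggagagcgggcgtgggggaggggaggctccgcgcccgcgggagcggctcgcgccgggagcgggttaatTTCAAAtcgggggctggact
E2f3, chr13:29986064-29986213, minus strand, 150 bases before the start: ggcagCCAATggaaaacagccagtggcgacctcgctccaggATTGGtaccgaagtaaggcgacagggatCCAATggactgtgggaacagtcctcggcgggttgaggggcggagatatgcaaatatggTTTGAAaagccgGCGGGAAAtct
E2f7, chr10:110745219-110745438, plus strand, 220 bases before the start: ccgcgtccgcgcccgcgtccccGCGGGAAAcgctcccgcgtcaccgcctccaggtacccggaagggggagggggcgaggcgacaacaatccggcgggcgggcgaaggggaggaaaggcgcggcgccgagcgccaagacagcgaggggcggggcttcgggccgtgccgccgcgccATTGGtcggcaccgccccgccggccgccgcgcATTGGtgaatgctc
Tfdp1, chr8:13338601-13338750, plus strand, 150 bases before the start: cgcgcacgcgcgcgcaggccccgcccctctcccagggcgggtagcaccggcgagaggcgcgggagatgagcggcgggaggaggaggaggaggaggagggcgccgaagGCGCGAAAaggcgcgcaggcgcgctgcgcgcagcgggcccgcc
E2f2, chr4:136172294-136172323, plus strand, bases 21 to 50 after the start: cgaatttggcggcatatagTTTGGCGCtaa

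An E2F motif lay in 5 of the 12 member windows, those of E2f2, E2f3, E2f7 and both overlapping windows of Tfdp1. Over all 32851 promoter windows 2.26% held one. E2f3 had it at bases -11 to -4 from its start with a CHR at -23 to -18, and E2f8 had a CHR at -20 to -15 and no E2F motif. A CHR lay in 3 of the 12 member windows (25%), the other one being the second window of E2f2, and a CCAAT box in 5 (41.7%), near the 19.2% and 37.4% of all windows. The E2f1 window held none of the motifs, and its RefSeq start site (chromosome 2, 154569426) lies inside the GENCODE gene, which begins at 154569892 on the minus strand. Both Tfdp2 windows also held none, and their start sites (chromosome 9, 96258705 and 96259248) lie inside a gene that begins at 96196275. For E2f1 and Tfdp2 the outer gene start was therefore not searched. The second start site of E2f2 (136180782) lies inside its gene too. These letters describe the windows only, and no binding was measured.

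The libraries held 18699434 to 32865708 counts, and 7 of 7 genes that mark forebrain regions (Emx1, Emx2, Dlx1, Dlx2, Dlx5, Six3, Gsx2) had counts in every library. Dyrk1a itself was at 177, 186 and 160 CPM (counts scaled to library size with TMM factors) in wt and 149, 147 and 158 CPM in Dyrk1a+/- replicates 1 to 3, a log2 fold change of -0.20 (SE 0.079; edgeR, Benjamini-Hochberg adjusted p = 0.59). All 3 heterozygotes lay below wt, and with the deleted part unknown this is a weak check of the genotype. Of the libraries, wt replicate 3 and Dyrk1a+/- replicate 2 stood apart by their share of 7SK, RNase P and RNase MRP RNA, 4.46% and 4% of counts against 2.57% to 3.01%. Differences within this pair and within the 4 other libraries are given where they bear on a member. Dyrk1a+/- replicate 3 was the highest of the 6 libraries in 10 of 10 members, where it was the highest in 19.4% of all genes tested. Its part in the members' values was checked by leaving it out.

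The activators E2f1 and E2f2 separated by genotype, and E2f3 did not. E2f1 (ENSMUSG00000027490, GRCm38 chromosome 2, 154559407 to 154569892) was at 14.4, 13.9 and 15.4 CPM in wt and 17.1, 17.8 and 18.7 CPM in Dyrk1a+/-. Every heterozygote lay above every wt library, with means of 14.6 ± 0.735 and 17.9 ± 0.787 CPM (SD, n = 3 per genotype). On the log2 scale Dyrk1a+/- minus wt was 0.29 (SE 0.098, 95% interval 0.07 to 0.52; edgeR quasi-likelihood test, unadjusted p = 0.015, Benjamini-Hochberg adjusted p = 0.529). Inside the 7SK-rich pair the difference in log2 CPM was 0.21, and among the 4 others 0.33.

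E2f2 (ENSMUSG00000018983, chromosome 4, 136172394 to 136196057) was at 14.8, 15.3 and 14.7 CPM in wt and 18.2, 19.2 and 19.7 CPM in Dyrk1a+/-. The genotypes did not overlap and the wt values lay close together, at 14.9 ± 0.292 CPM against 19 ± 0.801 CPM (SD, n = 3 per genotype). That wt spread, 1.95% of the mean, was below the 4.86% that counting alone would give at 385 to 486 counts, so it understates the error of a single library. This gave a log2 difference of 0.35 (SE 0.093, 95% interval 0.14 to 0.56; edgeR, unadjusted p = 0.00464, adjusted p = 0.483), with 0.37 within the pair and 0.32 within the others.

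E2f3 (ENSMUSG00000016477, chromosome 13, 29906575 to 29986063), whose alternative starts give a long and a short protein that gene counts cannot separate, was at 27.3, 31.6 and 26.4 CPM in wt and 30, 30 and 36.8 CPM in Dyrk1a+/-. The genotypes overlapped, since wt replicate 2 lay above 2 heterozygotes. The estimated log2 difference was 0.18 (SE 0.113, 95% interval -0.08 to 0.44; edgeR, adjusted p = 0.748), and without Dyrk1a+/- replicate 3 it was 0.077. E2f3 had the highest CPM of the E2f genes, and per kb of exon it ranked below E2f4 and E2f5.

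**Figure D1:**
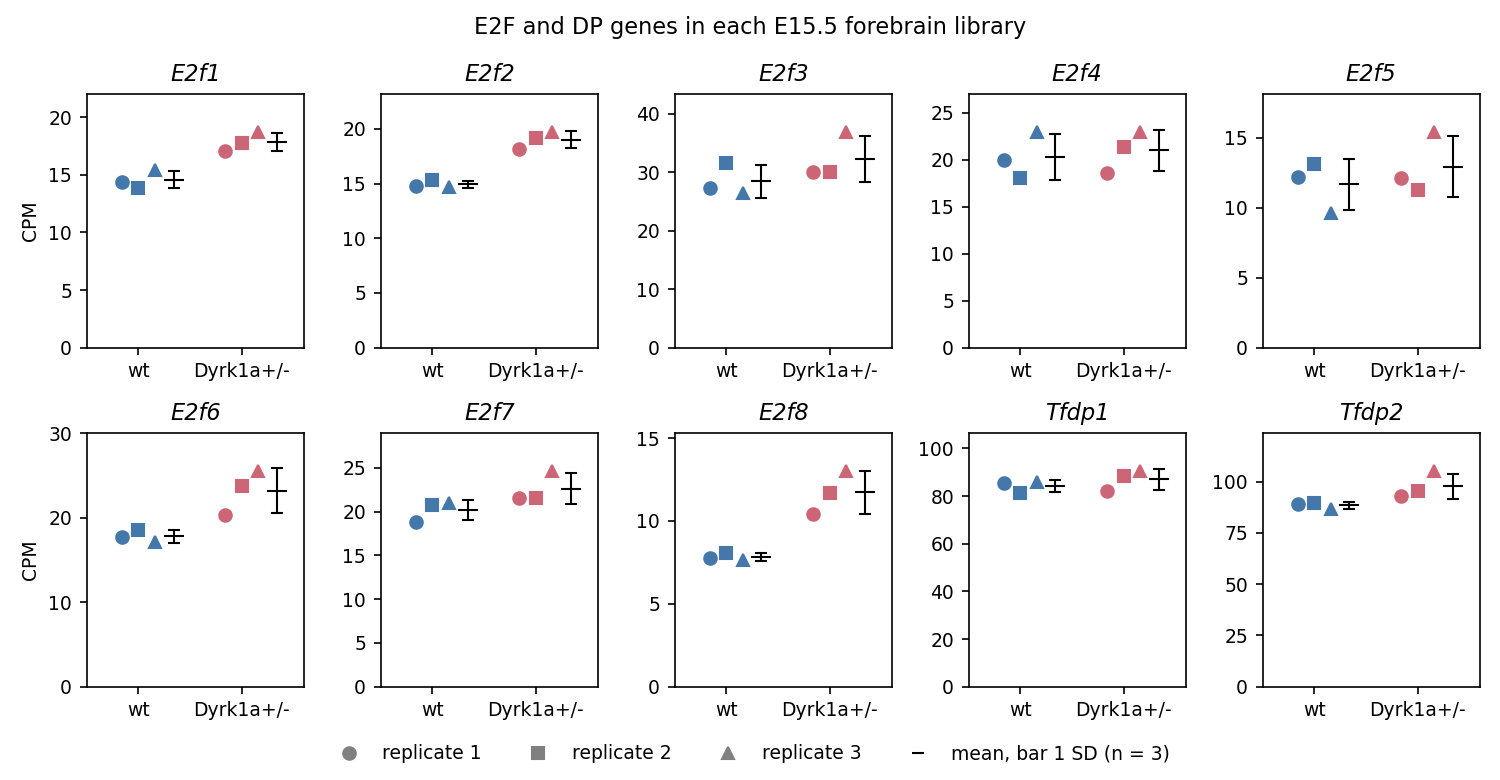
CPM of each E2F and DP gene (y axis, from 0, own scale per panel) in the 3 wt and 3 Dyrk1a+/- libraries. Symbols mark the replicate number, and the black mark with bars is the mean with 1 SD (n = 3). E2f8 runs from 7.63 to 8.09 CPM in wt and from 10.4 to 13 CPM in Dyrk1a+/-, while the genotypes overlap in E2f3, E2f4, E2f5 and Tfdp1.

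The pocket-protein-bound repressors E2f4 and E2f5 overlapped between genotypes. E2f4 (ENSMUSG00000014859, chromosome 8, 105297663 to 105305370) was at 19.9, 18 and 22.9 CPM in wt and 18.6, 21.3 and 22.9 CPM in Dyrk1a+/-. E2f4 had a log2 difference of 0.05 (SE 0.122, 95% interval -0.23 to 0.32; edgeR, adjusted p = 0.962), so a difference of up to 1.25-fold upward or down to 0.853 of wt lies inside the interval. The estimate was -0.10 inside the 7SK-rich pair and 0.12 among the remaining 4 libraries, and its sign turned when wt replicate 2 (-0.03) or Dyrk1a+/- replicate 3 (-0.02) was left out.

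E2f5 (ENSMUSG00000027552, chromosome 3, 14578641 to 14606309) was at 12.2, 13.1 and 9.63 CPM in wt and 12.1, 11.3 and 15.4 CPM in Dyrk1a+/-. A single library of each genotype, wt replicate 3 below and Dyrk1a+/- replicate 3 above, lay outside the range of the 4 others. For E2f5 the log2 difference came to 0.15 (SE 0.161, 95% interval -0.22 to 0.51; edgeR, adjusted p = 0.874), and 0.005 without Dyrk1a+/- replicate 3, 0.03 without wt replicate 3 and 0.24 without wt replicate 2 or Dyrk1a+/- replicate 2. In wt replicate 3, one of the pair rich in 7SK, E2f4 was at its highest wt level and E2f5 at its lowest. E2f5 shares 26 exon bases with 1810022K09Rik on the opposite strand (2835 counts against 1822 for E2f5). As the strand setting of the counting is not given in the sources used here, how reads over these bases were counted is not known.

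E2f6 separated by genotype. E2f6 (ENSMUSG00000057469, chromosome 12, 16810963 to 16839742), the pocket-independent repressor, was at 17.7, 18.6 and 17.1 CPM in wt and 20.3, 23.8 and 25.5 CPM in Dyrk1a+/-. All heterozygotes lay above wt, and they spread more widely, at 23.2 ± 2.66 against 17.8 ± 0.766 CPM (SD, n = 3 per genotype). E2f6 thus differed by 0.38 on the log2 scale (SE 0.109, 95% interval 0.14 to 0.63; edgeR, unadjusted p = 0.00664, adjusted p = 0.502), with 0.47 within the pair and 0.32 within the others. Only 1 of its 7 annotated transcripts is classed as protein coding, so the gene count does not give the level of the coding RNA.

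Of the atypical repressors, E2f8 differed most and E2f7 little. E2f8 (ENSMUSG00000046179, chromosome 7, 48866429 to 48881596) was at 7.78, 8.09 and 7.63 CPM in wt and 10.4, 11.7 and 13 CPM in Dyrk1a+/-. The lowest heterozygote stood well above the highest wt library, and the means were 7.83 ± 0.236 and 11.7 ± 1.29 CPM (SD, n = 3 per genotype). The wt spread of E2f8, 3.01% of the mean, was below the 6.71% that counting alone would give, so that SD too understates the error. On the log2 scale E2f8 differed by 0.58 (SE 0.122, 95% interval 0.30 to 0.86; edgeR, unadjusted p = 0.00109, adjusted p = 0.483), and the adjusted p was 0.0892 by DESeq2. Of all 19403 genes its unadjusted p ranked 30. It was 0.59 inside the pair and 0.53 among the others, and 0.50 without Dyrk1a+/- replicate 3. With 204 to 291 counts a library E2f8 was also the member of lowest depth. Gm2788 on the opposite strand shares 610 exon bases with E2f8 and had 29 counts in all. How reads over the bases shared with Gm2788 were counted is not known either.

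E2f7 (ENSMUSG00000020185, chromosome 10, 110745439 to 110787384) was at 18.8, 20.7 and 21 CPM in wt and 21.5, 21.6 and 24.6 CPM in Dyrk1a+/-. The genotypes did not overlap, by a narrow margin between 21 and 21.5 CPM. For E2f7 the log2 difference was 0.16 (SE 0.099, 95% interval -0.06 to 0.39; edgeR, adjusted p = 0.738), with 0.04 within the pair and 0.22 within the others. Without Dyrk1a+/- replicate 3 it was 0.097. The difference between E2f8 and E2f7 in their response to genotype was not tested, and their intervals overlap.

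The DP genes had the highest CPM of the members and the smallest standard errors. Tfdp1 (ENSMUSG00000038482, chromosome 8, 13338751 to 13378448), which encodes the common partner DP1, was at 85.4, 81.4 and 86.1 CPM in wt and 82.1, 88.5 and 90.4 CPM in Dyrk1a+/-. The genotypes overlapped, and the log2 difference was 0.05 (SE 0.071, 95% interval -0.12 to 0.21; edgeR, adjusted p = 0.931). With 1 library left out Tfdp1 was lowest without Dyrk1a+/- replicate 3 (0.016) or wt replicate 2 (0.018) and highest without Dyrk1a+/- replicate 1 (0.085). Tfdp2 (ENSMUSG00000032411, chromosome 9, 96196275 to 96323646), encoding DP2, was at 89.2, 89.5 and 86.5 CPM in wt and 93, 95.6 and 105 CPM in Dyrk1a+/-. All heterozygotes lay above wt, and the log2 difference was 0.15 (SE 0.072, 95% interval -0.02 to 0.31; edgeR, adjusted p = 0.684), or 0.093 without Dyrk1a+/- replicate 3.

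As counts, 10 of 10 members had an estimate above 0, where 51.2% of all genes tested did, and the median was 0.17 against 0.005 over all genes. The genotypes did not overlap in 6 members, all higher in Dyrk1a+/-, where 6.53% of all genes lay that way and 7.49% the opposite way (14% without overlap in either). At an unadjusted edgeR p under 0.05 there were 4 members, all higher, against 3.27% of all genes higher and 4.61% lower at that p (7.88% in either direction). After adjustment over all genes 0 members were called by edgeR and 0 by DESeq2 (which had 4 at an unadjusted p under 0.05), and 0.0103% and 0.155% of all genes were called. The exact 2-sided permutation p of CPM was 0.1, the smallest that 3 against 3 allow, for the 6 members without overlap. The median was 0.0947 without Dyrk1a+/- replicate 3, with 9 members above 0 and 3 at an unadjusted p under 0.05. The members were measured in the same 6 libraries and are not replicates of a genotype.

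**Figure D2:**
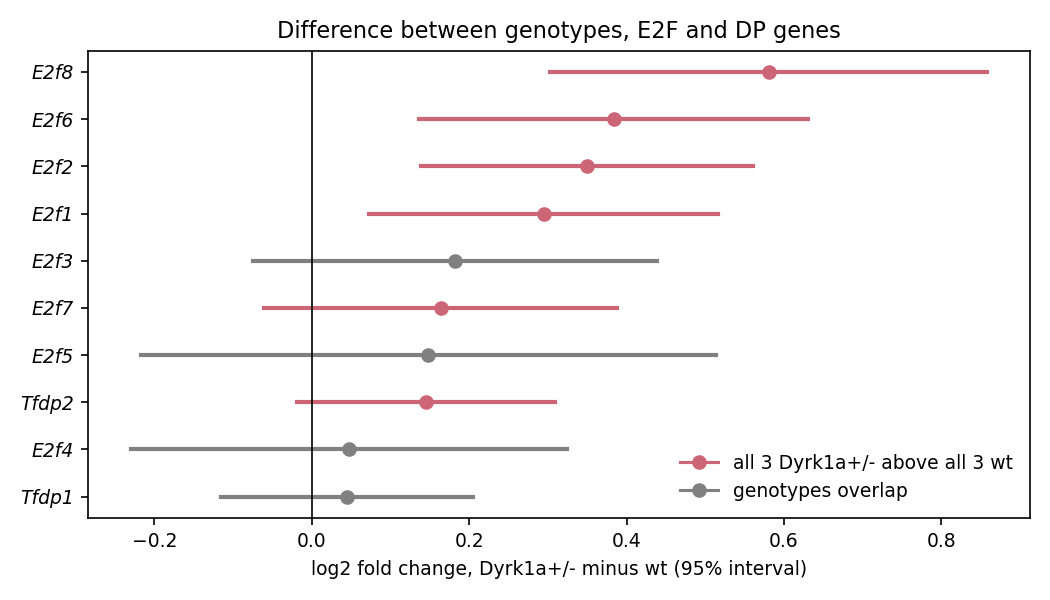
Log2 fold change (Dyrk1a+/- minus wt, x axis) of each member with its 95% interval from edgeR's quasi-likelihood fit, ordered by size. Red marks the 6 genes in which all 3 Dyrk1a+/- libraries lay above all 3 wt libraries. The intervals of E2f8, E2f6, E2f2 and E2f1 exclude 0 before adjustment over all genes, and those of the 6 others do not.

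Levels between members were compared per length, as CPM per kb of annotated exon. In wt Tfdp1 was the highest at 23 ± 0.685 per kb (SD, n = 3), above 90.2% of tested genes. E2f4 followed at 8.27 ± 0.995, E2f5 at 6.55 ± 1.02, Tfdp2 at 6.3 ± 0.118, E2f3 at 5.24 ± 0.514 and E2f1 at 4.62 ± 0.233 per kb. E2f6 (3.14 ± 0.135), E2f2 (3.06 ± 0.0597), E2f7 (2.24 ± 0.131) and E2f8 (1.44 ± 0.0433) were at the low end, E2f8 above 27.4% of tested genes. In this order E2f4 and E2f5, E2f5 and Tfdp2, E2f3 and E2f1, and E2f6 and E2f2 overlapped in their wt ranges, and the other neighbours did not. The order was the same in Dyrk1a+/-. With the length of the longest coding transcript in place of all exon bases, Tfdp2 moved to the second place at 12 per kb and E2f6 to the fourth at 7.36 per kb, while Tfdp1 stayed the highest and E2f8 the lowest.

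The makeup of the E2f family differed slightly between the genotypes. As a share of the summed E2f level per kb, E2f4 and E2f5 made up 43.8%, 41.9% and 43.1% in wt and 38.9%, 38.7% and 40.6% in Dyrk1a+/-. All heterozygotes lay below wt in this share, although neither gene was estimated lower in level. E2f7 and E2f8 together made up 10.3%, 10.8% and 10.9% in wt and 11.7%, 11.7% and 11.6% in Dyrk1a+/-, with E2f8 alone going from 4.16% ± 0.0674 to 5.37% ± 0.17 (SD, n = 3 per genotype). The activators E2f1 to E2f3 overlapped, at 36.9% to 38% and 37.7% to 39.7%. Tfdp1 was 78.5% ± 0.762 of the DP level in wt and 77.3% ± 0.617 in Dyrk1a+/-. The summed E2f level was 34.3, 35.2 and 34.2 per kb in wt and 36.9, 38.9 and 44.4 per kb in Dyrk1a+/-. These shares are descriptions and were given no test.

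**Figure D3:**
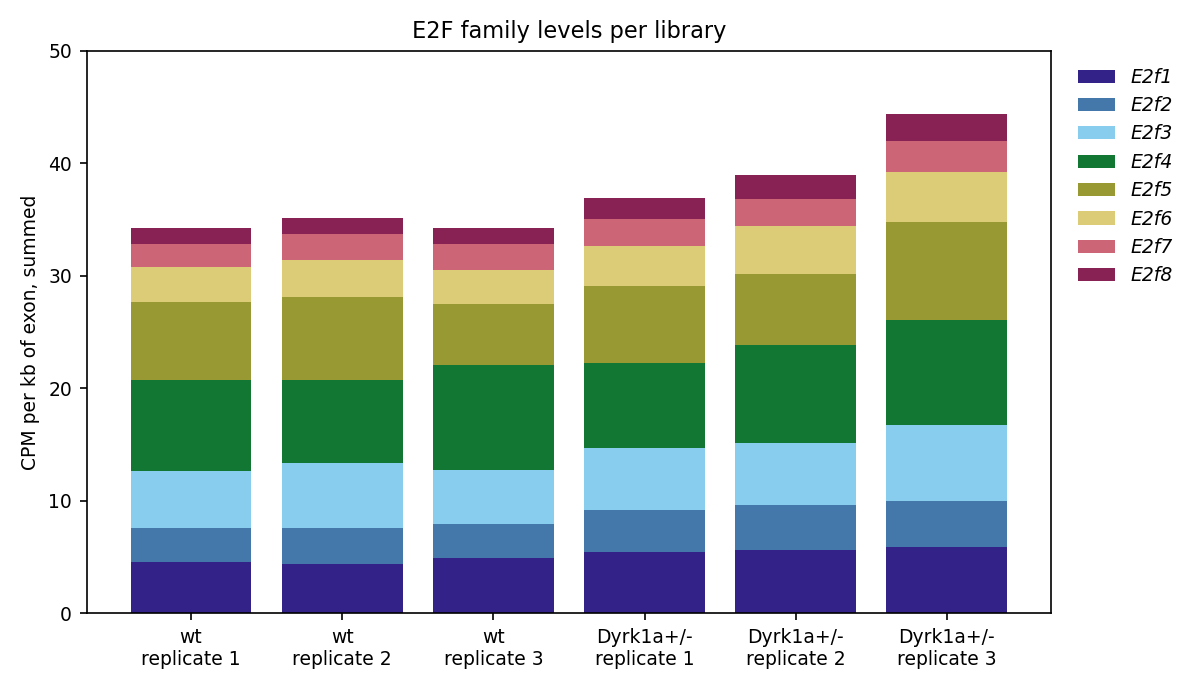
Stacked bars of the 8 E2f genes in each library, as CPM per kb of exon (y axis, from 0). The totals lie at 34.2 to 35.2 in wt and 36.9 to 44.4 in Dyrk1a+/-, where replicate 3 is the highest.

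A list of pocket protein genes and MuvB core genes of DREAM, together with Mybl1, Mybl2 and Foxm1, had a median close to that of the members. Mybl1, Mybl2 and Foxm1, at 0.28, 0.23 and 0.25 on the log2 scale, are not pocket protein or MuvB core genes. A median without them was not taken. All 11 genes of the list were estimated higher (median 0.18), where 51.2% of all genes tested were. By edgeR 2 were higher at an unadjusted p under 0.05, as 3.27% of all genes were. After adjustment 0 were called by edgeR or DESeq2. Rbl1, which encodes the pocket protein p107 and is itself an E2F target, was at 31.7, 35.3 and 29.7 CPM in wt and 41.2, 34.3 and 48.2 CPM in Dyrk1a+/-, with overlap through the second heterozygote (log2 fold change 0.35, SE 0.128; edgeR adjusted p = 0.566). Rb1, the retinoblastoma gene, ranged from 55 to 90.3 CPM in wt and from 62.7 to 95.7 CPM in Dyrk1a+/- (0.08, SE 0.196), and its sign turned without wt replicate 3 (-0.11) or Dyrk1a+/- replicate 3 (-0.08). Rbl2, encoding p130, was at 47.3 ± 0.484 and 47.9 ± 1.95 CPM (SD, n = 3 per genotype; 0.02, SE 0.071, -0.02 without Dyrk1a+/- replicate 1). The MuvB subunit gene Lin54 had 0.25 (SE 0.102; 28.7 against 34.1 CPM), with no overlap. Rbbp4, a histone chaperone subunit of MuvB and other complexes, had 0.15 (SE 0.07), also without overlap. Of all genes tested 6.53% lay higher without overlap. The counts at an unadjusted p under 0.05 ran from 0 without wt replicate 1 or Dyrk1a+/- replicate 3 to 5 with a term for the library pair, and 0 with replicate number as a block.

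The G1 cyclins, kinases and inhibitors went both ways. Of 15 listed genes 13 were tested, with 10 estimated higher and 3 lower, where 51.2% of all genes tested were higher. The median was 0.14, or 0.033 without Dyrk1a+/- replicate 3. After adjustment 0 were called by edgeR or DESeq2. By edgeR 1 was higher at an unadjusted p under 0.05, where 3.27% of all genes were. That gene was Cdkn2c, which encodes an inhibitor of CDK4 and CDK6 (0.35, SE 0.137; 13.6 against 17.3 CPM). Cdk4 (0.19, SE 0.102) and Cdk2 (0.22, SE 0.124) overlapped between genotypes.

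Marker genes of other cell types are given beside these values, and 0 progenitor or neuronal markers were called by edgeR or DESeq2. The only marker called in any list was the meningeal gene Ptgds, lower in Dyrk1a+/- (log2 fold change -1.155, SE 0.109). Its adjusted p was 0.0238 by edgeR and 7.18e-14 by DESeq2. At an unadjusted edgeR p under 0.05, 3 apical and 3 intermediate progenitor markers were higher and 3 neuronal markers lower. At that p 3 meningeal, 3 erythroid, 3 oligodendrocyte precursor and 1 microglial marker were lower, and 1 erythroid marker was higher. Over all genes tested 3.27% were higher and 4.61% lower at that p. Summed over 6 markers, intermediate progenitor genes were at 220 to 245 CPM in wt and 261 to 317 CPM in Dyrk1a+/-. All 6 were estimated higher, and 3 of them lay above all wt libraries, as 6.53% of all genes did. Summed over 14 markers, neuronal genes were at 6880 to 7360 CPM in wt and 6540 to 6740 CPM in Dyrk1a+/-, with 10 markers estimated lower and 4 higher. The sums of 9 apical progenitor genes overlapped, at 1060 to 1190 and 1110 to 1230 CPM, with 7 estimated higher and 2 lower. The sums of 7 meningeal genes (251 to 280 and 191 to 225 CPM), 8 erythroid genes (741 to 938 and 578 to 737 CPM) and 5 genes of oligodendrocyte precursors (110 to 114 and 77.5 to 96.2 CPM) were lower in Dyrk1a+/- without overlap. Single genes did not all follow these sums, since 4 of 7, 4 of 8 and 3 of 5 lay below all wt libraries. Over all genes 7.49% lay that way. The embryonic globin gene Hbb-y, singled out after its values were seen, went the opposite way without overlap (2.62 on the log2 scale, SE 0.533; edgeR adjusted p = 0.483). Its heterozygotes spread widely, at 42.3 ± 34.9 CPM against 6.85 ± 2.5 CPM in wt (SD, n = 3 per genotype). Hba-x, also an embryonic globin gene, was estimated higher with overlap (1.21, SE 0.54), and the 6 other erythroid markers lower. Endothelial genes, 208 to 235 and 197 to 227 CPM over 6 markers, and microglial genes, 46.5 to 51.8 and 41.1 to 49.4 CPM over 6, overlapped. All markers had counts in all libraries, and their part in the differences of the E2F, DP and target genes was not tested.

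Target genes lay higher in Dyrk1a+/- as a group, in lists chosen with earlier results of these data known. Genes of a list were measured in the same 6 libraries and are not replicates of a genotype. In the G1/S list, genes that E2F activates for DNA synthesis, 40 of 40 were estimated higher, with a median of 0.28, and in 25 all heterozygotes lay above all wt libraries (6.53% of all genes). By edgeR 32 were at an unadjusted p under 0.05, where 3.27% of all genes were higher at that p. After adjustment over all genes 0 were called, as by DESeq2. The lowest p belonged to Rpa2, a subunit of the single-strand binding protein (24.1 against 30.2 CPM, 0.33, SE 0.081), Cdca7 (66.3 against 83.7 CPM, 0.34, SE 0.083) and Dut, the dUTPase that keeps uracil out of DNA (21.1 against 27.1 CPM, 0.36, SE 0.09). The count was 13 without Dyrk1a+/- replicate 3 and 16 without wt replicate 1, with 40 of 40 estimated higher in either fit. In that list Dyrk1a+/- replicate 3 was the highest library for 28 of 40 genes.

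In the G2/M list, genes of mitosis that DREAM represses in resting cells, 28 of 28 were estimated higher, with a median of 0.35. By edgeR 26 were at an unadjusted p under 0.05 (11 without Dyrk1a+/- replicate 3 and 11 without wt replicate 1), against 3.27% of all genes higher. After adjustment edgeR called 0 and DESeq2 4, where they called 0.0103% and 0.155% of all genes. Dyrk1a+/- replicate 3 was the highest library for 24 of 28 genes. Tpx2, a spindle assembly factor, was at 52.5, 54.9 and 58.5 CPM in wt and 69.9, 76 and 80.5 CPM in Dyrk1a+/- (0.45, SE 0.081; DESeq2 adjusted p = 0.0238). The spindle checkpoint kinase gene Ttk had 0.53 (SE 0.107; DESeq2 adjusted p = 0.0398) and the kinetochore gene Cenpf 0.42 (SE 0.092; DESeq2 adjusted p = 0.0493). Both the G1/S and the G2/M median were above that of the E2F and DP genes, and E2f8 lay above both medians.

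The promoter windows of the 2 target lists differed in motif. In the G1/S list 18 of 38 windows (47.4%) held an E2F motif and 4 (10.5%) a CHR, and in the G2/M list 1 of 24 (4.17%) held an E2F motif and 19 (79.2%) a CHR, where all windows gave 2.26% and 19.2%. Cdca7 of the G1/S list is shown for the E2F motif, Ttk and Cenpf of the G2/M list for the CHR with CCAAT boxes upstream, and Rbl1 of the pocket protein list for its E2F motif, in the same notation as above.
Rbl1, chr2:157204535-157204594, minus strand, 60 bases before the start: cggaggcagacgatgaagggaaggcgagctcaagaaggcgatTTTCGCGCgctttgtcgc
Cdca7, chr2:72476119-72476218, plus strand, 100 bases before the start: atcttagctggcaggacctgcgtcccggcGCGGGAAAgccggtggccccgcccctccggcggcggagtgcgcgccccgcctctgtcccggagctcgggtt
Ttk, chr9:83834589-83834708, plus strand, 100 bases before to 20 after the start: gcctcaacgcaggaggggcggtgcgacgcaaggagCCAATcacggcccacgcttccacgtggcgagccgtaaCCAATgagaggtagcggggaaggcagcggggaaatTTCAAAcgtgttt
Cenpf, chr1:189688067-189688226, minus strand, base -140 to base 20 from the start: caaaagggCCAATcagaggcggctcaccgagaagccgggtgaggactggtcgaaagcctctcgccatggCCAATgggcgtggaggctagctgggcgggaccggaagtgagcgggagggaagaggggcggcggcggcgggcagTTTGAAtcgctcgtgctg

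Tested genes with an E2F motif in a promoter window were estimated higher in Dyrk1a+/- somewhat more often than all genes with a window. Of 538 such genes 342 (63.6%) were estimated higher, where 52% of all 12301 tested genes with a promoter window were, and the medians were 0.049 and 0.007. At an unadjusted edgeR p under 0.05, 7.06% were higher and 2.97% lower, against 3.55% and 5.04% of all genes with a window, and 0 were called by edgeR or DESeq2. Outside the fixed lists 509 genes held the motif, of which 61.5% were estimated higher, against 52% of all genes with a window. At that p 4.13% of the 509 were higher and 3.14% lower, against 3.55% and 5.04%. The E2F motif was not alone in this: of 1003 genes with a CHR and a CCAAT box 56.2% were estimated higher. At that p 8.28% of the 1003 were higher and 5.88% lower. DESeq2 called 4 of them, and 26 of all 12301 genes with a window. Unlike the E2F motif set, this set was not counted outside the fixed lists. In the G2/M list 19 of 24 windows held a CHR. Within the G1/S list the median was 0.27 in 18 genes with the motif and 0.28 in 16 without, a comparison given no test.

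**Figure D4:**
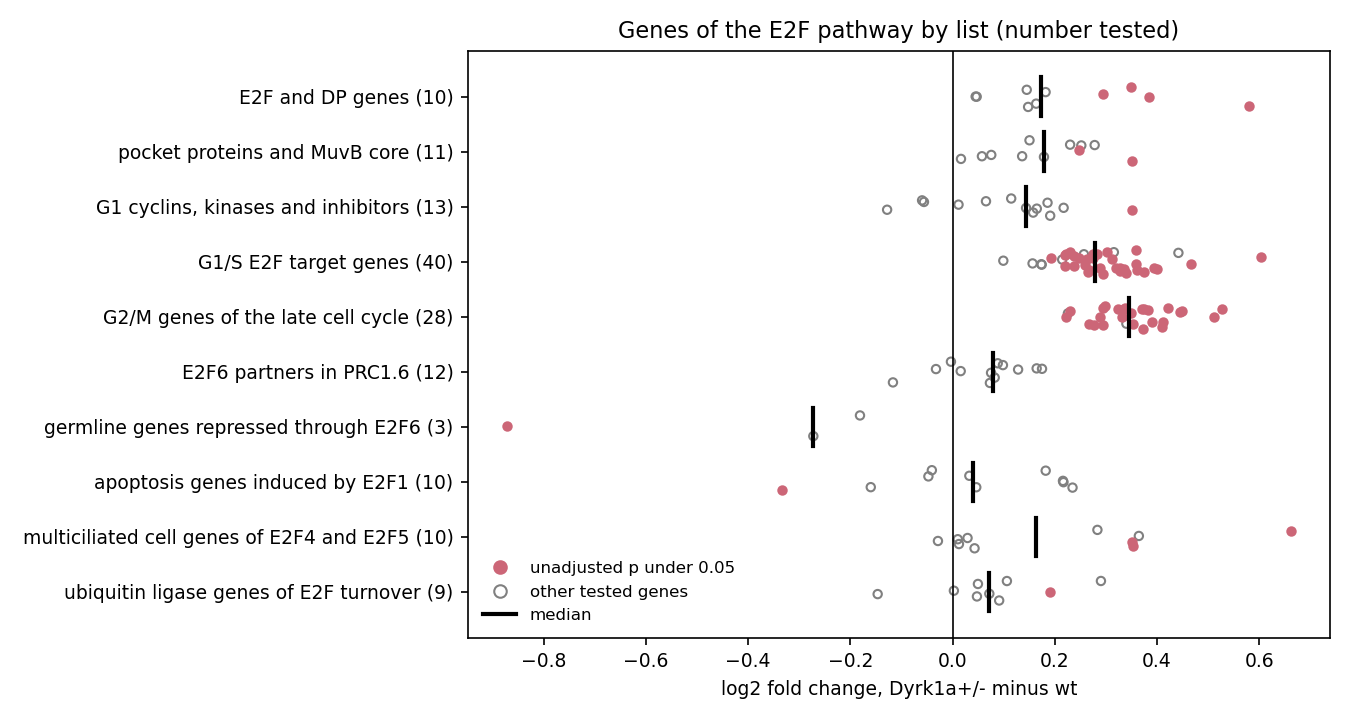
Log2 fold change (Dyrk1a+/- minus wt, x axis) of every tested gene in the lists of the E2F pathway, 1 point a gene, with vertical jitter only. Red points have an unadjusted edgeR p under 0.05, open points do not, and black bars are medians. The G1/S and G2/M medians are 0.28 and 0.35, and that of the E2F and DP genes is 0.17.

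Among the lists of genes tied to single E2Fs or to E2F turnover, only the germline list (3 genes tested) had a median below 0. Over all genes tested 51.2% were estimated higher. Partners of E2F6 in its polycomb complex (PRC1.6) were close to wt, with 9 of 12 estimated higher, a median of 0.079 (0.0058 to 0.126 with 1 library left out) and 0 at an unadjusted p under 0.05. Mga, the scaffold of that complex, was at 322 and 345 CPM (0.10, SE 0.069), Pcgf6 at 20.3 and 23 CPM (0.18, SE 0.116) and Wdr5 at 58.1 and 61.8 CPM (0.09, SE 0.08). Of 12 germline genes that E2F6 keeps silent in somatic cells, 10 were in the table and 3 passed the low-count filter. Smc1b, a meiotic cohesin gene with 83 counts in all, was at 0.702, 0.595 and 0.752 CPM in wt and 0.531, 0.362 and 0.213 CPM in Dyrk1a+/-. As its wt libraries were the higher ones at the filter, these values are given with no test. The meiotic cohesin gene Stag3 (-0.18, SE 0.219; 0.045 without Dyrk1a+/- replicate 3) and the germ cell helicase gene Ddx4 (-0.27, SE 0.399; 0.10 without Dyrk1a+/- replicate 2) overlapped between genotypes. Stag3 was not silent in these libraries, at a mean of 14.2 CPM in wt and 12.5 CPM in Dyrk1a+/-.

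Apoptosis genes that E2F1 can induce had 6 of 10 estimates above 0, near the 51.2% of all genes tested. Their median was 0.04 (0.011 to 0.08 with 1 library left out). The BH3-only gene Hrk was at 18.6 and 14.8 CPM, with all heterozygotes below wt (-0.33, SE 0.13; edgeR unadjusted p = 0.0305, adjusted p = 0.59), and Casp8ap2 (0.22, SE 0.103) and the p53 relative Trp73 (0.23, SE 0.123) overlapped. Genes of multiciliated cells, in which E2F4 and E2F5 work with geminin relatives, had 9 of 10 estimates above 0, where 51.2% of all genes did. Their median was 0.16, or 0.047 over the genes with at least 1 CPM in 3 libraries. Gmnc, the geminin relative that starts this program, was at 2.59, 2.3 and 1.43 CPM in wt and 4.15, 3.06 and 2.83 CPM in Dyrk1a+/- (0.66, SE 0.257; edgeR unadjusted p = 0.0305, adjusted p = 0.59). Myb (0.35, SE 0.137) and the ciliary regulator Rfx2 (0.35, SE 0.155) also lay above wt in every heterozygote. Over all genes tested 6.53% lay above wt in this way and 7.49% below. In the list of ubiquitin ligase genes that turn E2Fs over, 8 of 9 were estimated higher, where 51.2% of all genes were. The median was 0.072 and ran from 0.034 to 0.128 with 1 library left out. Skp2, which encodes the F-box protein that binds E2F1, was at 48.4 and 55.3 CPM with no overlap (0.19, SE 0.074), Cks1b, its cofactor gene, overlapped (0.29, SE 0.138), and Anapc2, a subunit gene of the anaphase-promoting complex, was lower without overlap (-0.15, SE 0.079). In these 4 lists and the E2F6 partner list 0 genes were called by edgeR or DESeq2, and DESeq2 gave no adjusted p for Smc1b and Ddx4.

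By the root-mean-square difference of centred log2 CPM over the 6 libraries, among 10930 other genes of at least 10 CPM, the genes most like E2f8 were Ttk (0.041), Cenpf (0.072) and the Notch effector gene Hes1 (0.075). Those most like E2f2 were the katanin gene Katna1 (0.036), the spindle gene Spag5 (0.042) and Pax6, a transcription factor gene of radial glia (0.042). Among the members themselves E2f7 and Tfdp2 (0.061) and E2f1 and E2f2 (0.061) were the closest pairs. Genotype was left in these profiles, so genes with a like difference between genotypes lie close by construction. The log2 differences of Ttk, Cenpf and Hes1 were 0.53, 0.42 and 0.48, against 0.58 for E2f8.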

How the data were processed

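The authors deposited 1 table of raw counts per Ensembl gene, a column per library. Per the submitters' processing notes the tools were bcl2fastq 2.17.1.14, HISAT2, SAMtools 1.9 and HTSeq 0.9.1 on GRCm38/mm10; the annotation release and strand setting were not given in the sources used here. The labels name both poly(A) RNA and a stranded total-RNA kit with ribosomal depletion. Symbols (32888 of 33084 identifiers), coordinates and exon lengths came from GENCODE M21 on GRCm38, and promoters from RefSeq.

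Counts were fitted with edgeR 4.0.16 (R 4.3.3, with limma 3.58.1 loaded): filterByExpr, TMM, quasi-likelihood test with genotype as the only term, and Benjamini-Hochberg adjustment over 19403 genes at a threshold of 0.05. Standard errors and intervals come from the F statistic. DESeq2 1.42.0 was an alternative. Log2 CPM used a pseudocount of 0.5. No source used here names molecular identifiers, and counting errors cover sampling of reads only.

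Members, lists, tests and alternatives were chosen with earlier results of these data known. The text names all members, Dyrk1a, 3 pocket protein genes, the 3 genes of lowest unadjusted p in each pathway list, and, for the 2 members of lowest p, the 3 genes closest in profile. No protein table was used. Of the forebrain markers listed, 1 is not reported here.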

Additional observations from a re-analysis of the deposited data

How the results depend on the processing

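Over 16 alternatives to the edgeR fit, 0 of the 10 members were called in any, and the lowest adjusted p of a member was 0.0892, for E2f8 by DESeq2 (0.0996 with a term for the library pair). The sign of 9 members held in all 16. E2f4 ran from -0.032 to 0.142 with 1 library left out. Outside the members Rb1 ran from -0.11 to 0.22, Rbl2 from -0.018 to 0.038, Stag3 from -0.37 to 0.045 and Ddx4 from -0.81 to 0.10 when 1 library was left out, and Ddx4 was at 0.24 in the 4 libraries outside the pair; the cause was not tested. The median of the members ran from 0.0947 to 0.249 with 1 library left out and from 0.161 to 0.206 otherwise.

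Over all genes edgeR called 2 (1528 at an unadjusted p under 0.05). DESeq2 called 30 and edgeR with no low-count filter 4. With a term for the library pair edgeR called 6 (3037 at an unadjusted p under 0.05), and on the 4 libraries outside the pair 6. With replicate number as a block 0 were called (1110 at an unadjusted p under 0.05), and with 1 library left out 0 to 5. Same-numbered libraries correlated in their deviations from the genotype means at -0.448 to 0.283 over 16774 genes, no library pair matched best by its number, and the numbers do not pair the embryos; the block changed no member's call.

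Per kb of the longest coding transcript, a length chosen after the data were seen, as was the fit on 4 libraries, wt levels were 5.29 for E2f1, 3.15 for E2f2, 10.2 for E2f4, 7.36 for E2f6, 3.69 for E2f7, 2.12 for E2f8, 33.6 for Tfdp1 and 12 for Tfdp2. At 204 to 291 counts a library, counting error alone is 6.71% of the wt mean for E2f8, against 2% for Tfdp2.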
